A study of Mus musculus with 9 samples.

Results

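The meiotic entry regulators are 5 genes that turn spermatogonia (SG) from mitosis to meiosis: Stra8, Gm4969 (which encodes MEIOSIN), Meioc, Ythdc2 and Rbm46. They were chosen by name from the 32285 genes of the count tables, and all 5 are among the 26567 genes found in over 15 of the barcodes kept. Their levels were followed from undifferentiated SG through differentiating SG, preleptotene (pL), leptotene (L), zygotene (Z) and pachytene (P) spermatocytes, and compared between 3 genotypes.

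The levels come from 10x 3′ single cell libraries of whole testis, 1 library per mouse, taken at postnatal day 24 from males on a C57BL/6 J background. The floxed Nelfb line was of C57BL/6 N origin and the floxed Tardbp line of mixed C57BL/6 N and C57BL/6 J origin before backcrossing. Control mice numbered 4, and the conditional knockouts (cKO) were 2 mice for NELF-B and 3 for TDP-43. Each cKO mouse had 1 floxed and 1 null allele of its target and a Stra8-iCre transgene, in which a Stra8 promoter drives the recombinase from early SG on. Nelfb loses exons 1 to 4 and Tardbp, the gene of TDP-43, loses exon 3. The null allele is present in every cell of a cKO mouse, somatic cells included. Controls were littermates or mice of other litters. The study calls its controls wild type, but the name under which control replicate 2 was deposited carries the word het, and the alleles and transgene of each control are not given in the sources used here.

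Male germ cells enter meiosis after retinoic acid reaches them. STRA8 and MEIOSIN form a complex that binds gene promoters and switches on a broad set of meiotic genes at pL, and Stra8 is known to be made at 2 points, in SG that begin to differentiate and again in pL cells. MEIOC, YTHDC2 and RBM46 act on RNA instead: MEIOC and the helicase YTHDC2 bind each other and lower mitotic transcripts in early spermatocytes, and the RNA-binding protein RBM46 works with them. Loss of any of the 5 genes stops male germ cells at or soon after meiotic entry.

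The promoters of 4 members are shown because earlier work ties their start to retinoic acid receptors, to E2F6 and MGA–MAX repressors, and to the STRA8–MEIOSIN complex. In the GRCm38 build and the GENCODE vM21 annotation, Stra8 lies at chr6:34920163-34939344 on the plus strand, Gm4969 at chr7:19099046-19118368 on the minus strand, Meioc at chr11:102663716-102682237 on the plus strand and Rbm46 at chr3:82837228-82876483 on the minus strand. In that annotation 0 other genes overlap any of the 5 members. Promoter windows of 250 bases before to 50 after the RefSeq start on GRCm38 were searched on both strands for 4 motifs. These are CNCCTCAG, bound by STRA8–MEIOSIN, AGGTCA, an element bound by retinoic acid receptors, CACGTG, the E-box that MGA–MAX binds, and GCGGGA, a core of E2F sites. Capitals mark each motif in the gene's own strand, so a motif on the other strand appears as its reverse complement.
Stra8, chr6:34920748-34920777: gtgaaaAGGTCAtcttgctccttccacacc
Stra8, chr6:34920904-34920933: ggtaccAGGTCAgttttttacctgaggcaa
Gm4969, chr7:19118369-19118594: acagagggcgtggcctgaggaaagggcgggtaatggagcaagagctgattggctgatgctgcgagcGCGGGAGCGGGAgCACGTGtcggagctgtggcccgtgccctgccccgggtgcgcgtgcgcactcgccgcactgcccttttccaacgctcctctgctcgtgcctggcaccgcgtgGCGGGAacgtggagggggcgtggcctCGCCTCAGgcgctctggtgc
Meioc, chr11:102665335-102665384: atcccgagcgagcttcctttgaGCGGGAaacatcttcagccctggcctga
Rbm46, chr3:82876484-82876583: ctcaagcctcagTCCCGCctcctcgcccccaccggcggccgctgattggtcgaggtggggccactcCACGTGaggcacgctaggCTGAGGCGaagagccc

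The Stra8 window holds AGGTCA at first bases -194 and -38 from the start, and both copies lie in annotated exons of a longer Stra8 transcript. Gm4969 holds GCGGGA at -184, -178 and -70, CACGTG between the second and the third of these, and CNCCTCAG at -44. Meioc holds GCGGGA at -228. Rbm46 holds CACGTG at -34, with GCGGGA at -88 and CNCCTCAG at -16 on the other strand. Over 32851 RefSeq promoter windows of the same length, CNCCTCAG was found in 7.94%, AGGTCA in 16.3%, CACGTG in 7.15% and GCGGGA in 20.0%, so a match is common and is a description of these letters alone.

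The libraries held 119203347 to 159407373 UMIs each, a UMI being a tag that counts 1 transcript molecule, and 2982 to 8457 barcodes each passed the filter of over 1000 genes and under 10% mitochondrial UMIs. Of 44872 barcode sequences that passed, 260 occur in more than 1 library. Germ cells were clustered without the 5 members, and clusters were given a stage from marker genes. Each stage name stands for cells that resemble that stage by its markers: 1844 undifferentiated SG, 3130 differentiating SG, 2618 pL, 811 L, 2228 Z and 1932 P cells over the 9 mice. Clusters were named by the mean of their markers. A marker was among the top 10 genes of both undifferentiated SG clusters (Gfra1, Ret and Lhx1 in 1 of them), of the L cluster (Prdm9) and of 2 of 3 P clusters (Piwil1 in 1), but in 1 of 3 pL clusters (Rec8), 1 of 3 Z clusters (Ccnb3) and 0 of 3 differentiating SG clusters. TDP-43 cKO 1 had 3 P cells and was left out of that stage, so the TDP-43 group has n = 2 at P, and NELF-B cKO 2 had 49. The L stage held 34 to 142 cells per mouse. When the genotypes were not integrated before clustering, the libraries split: a pL cluster of 753 cells held 0, 0, 0 and 7 cells of control replicates 1 to 4 and 1 of NELF-B cKO 1, but 159 of NELF-B cKO 2. TDP-43 cKO replicates 1 to 3 had 161, 239 and 186 cells in it. NELF-B cKO 1 thus grouped with the controls there and NELF-B cKO 2 with TDP-43 cKO. Median UMIs per barcode that passed the filter split alike. They were 1754 to 6369 in the controls, 5165 in NELF-B cKO 1, 17312.5 in NELF-B cKO 2 and 14117 to 19254 in TDP-43 cKO. For TDP-43 cKO against control, genotype and this split of the libraries cannot be told apart. The names of the deposited libraries share prefixes across genotypes, and whether these mark litters or runs is not given in the sources used here. Levels are given in CPM, the UMIs of a gene relative to all UMIs of the same cells on a scale common to all mice, with cells summed per mouse and stage.

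The targeted genes were read first. Nelfb was at 29.8 to 83.8 CPM in the control mice over the 6 stages and at 0 to 7.16 CPM in the NELF-B cKO mice. At L both NELF-B cKO mice had 0 Nelfb UMIs, which at 747280 and 746237 UMIs allows up to 4.01 and 4.02 CPM by counting error alone. In pL the log2 fold change of Nelfb was -4.56 ± 0.22 (SE, edgeR adjusted p = 1.9e-05). A Tardbp UMI comes from the 3′ end and does not show whether exon 3 is present. Tardbp was nevertheless lower in the TDP-43 cKO mice from undifferentiated SG (36.8, 39.3 and 42.0 CPM against 63.3 to 70.6 in controls) to Z (65.3, 91.0 and 107 against 234 to 278), with a log2 fold change of -1.53 ± 0.16 at Z (edgeR adjusted p = 0.00012). In pL it was 34.7, 46.1 and 47.7 CPM against 86.8 to 149, short of the threshold (log2 fold change -1.34, edgeR adjusted p = 0.055). In P it was 152 and 159 CPM against 157 to 170 (log2 fold change -0.09, edgeR adjusted p = 0.74), so at that stage the cells named P in these mice carried as much Tardbp 3′ signal as control cells.

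In the control mice the 5 genes did not share 1 pattern. Stra8 and Gm4969 were high for a short time and then nearly gone, whereas Meioc, Ythdc2 and Rbm46 stayed on through P. These levels are described without a test, because the stages are clusters of the same cells.

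**Figure D1:**
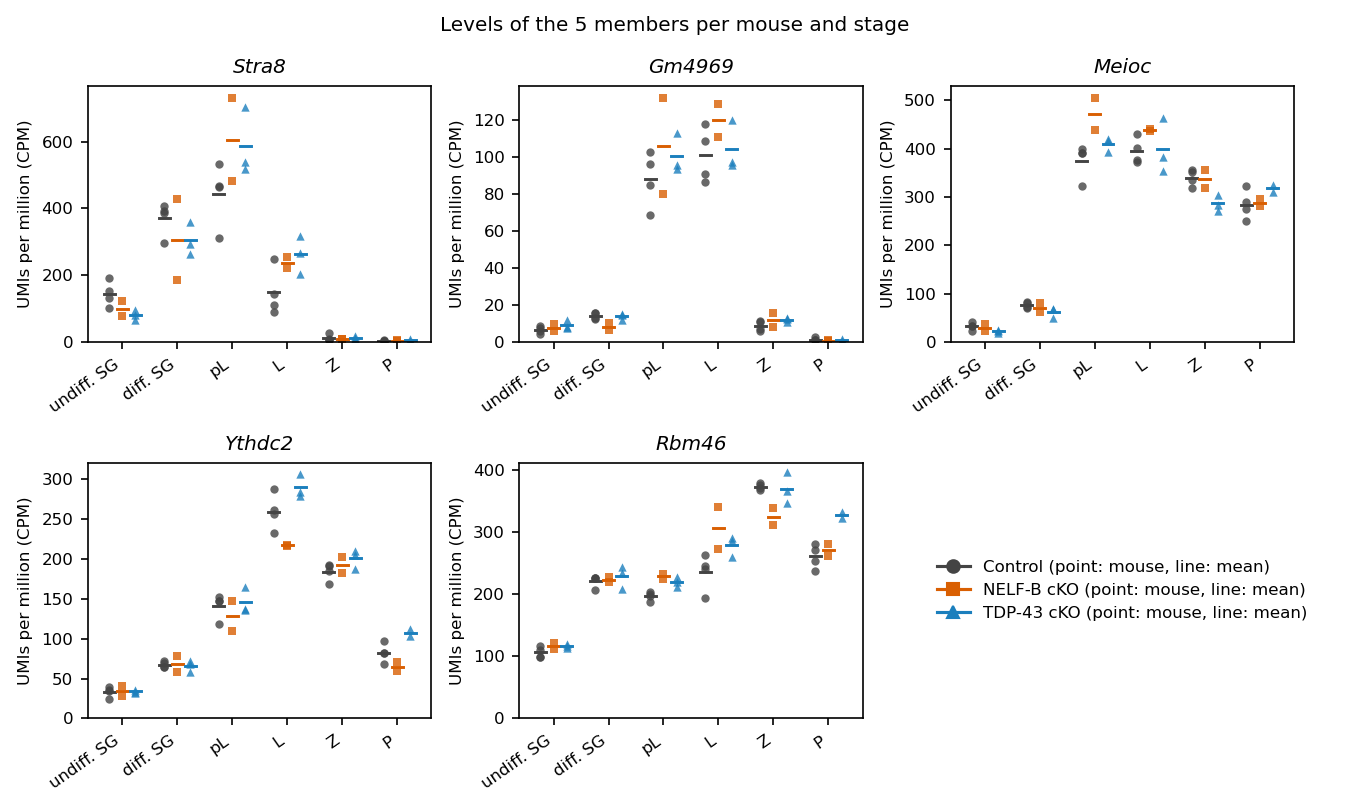
Level of each of the 5 genes (CPM of summed UMIs, vertical axis) in 6 germ cell stages (horizontal axis). Each point is 1 mouse, colours are the 3 genotypes and short horizontal lines are the group means. Stra8 and Gm4969 fall from L to Z in every genotype, while control Rbm46 is highest at Z, at 367 to 379 CPM.

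Stra8, the retinoic acid target that gives pL cells their name in many marker lists, was present in undifferentiated SG at 101, 132, 151 and 190.3 CPM in control replicates 1 to 4. The mean of this stage, 143 CPM, depends on the clustering, at 63.0 CPM without integration and 281 CPM with spermatid genes kept in clustering. It reached 387, 407, 391 and 296 CPM in differentiating SG and 312, 463, 532 and 467 CPM in pL. The mice of these 2 stages overlapped. At L it stood at 249, 90.5, 144 and 109 CPM, below every mouse of pL. It then dropped to 5.85 to 25.6 CPM at Z and 1.48 to 5.01 CPM at P. Its mean was 444 ± 93.3 CPM at pL and 3.28 ± 1.48 CPM at P (SD, n = 4), a 135-fold span, the widest of the 5 genes.

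Gm4969, the partner of Stra8, began later. It was at 5.66, 8.73, 7.55 and 4.24 CPM in undifferentiated SG and 15.6, 12.3, 12.8 and 15.7 CPM in differentiating SG of the 4 control mice. In pL it had risen to 68.7, 103, 96.6 and 85.2 CPM, a 6.27-fold step in the means, and at L it was 91.0, 109, 86.6 and 118 CPM. The pL and L mice overlapped. At Z it was down to 6.10 to 11.2 CPM, and at P to 0.775 to 2.40 CPM. Thus Stra8 was already at 370.2 ± 50.1 CPM in differentiating SG while Gm4969 stood at 14.1 ± 1.81 CPM, so that in each gene's own terms Stra8 was near its highest stage mean and Gm4969 far from it.

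Meioc, the partner of Ythdc2, took the same step at pL but did not fall back. It was at 32.2 ± 8.02 CPM in undifferentiated SG, 76.4 ± 6.05 CPM in differentiating SG and 375 ± 36.0 CPM in pL (SD, n = 4). At L it was 401, 429.6, 373 and 377 CPM, overlapping pL. It was 339.9 ± 16.7 CPM at Z and 284 ± 30.0 CPM at P, and the mice of these neighbours overlapped.

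Ythdc2, which lies on chromosome 18 from 44827746 to 44889724 on the plus strand of GRCm38, rose at each step to L and fell at each step after it, and no neighbouring stages overlapped. Its means were 33.2 ± 6.40, 67.5 ± 3.76, 141 ± 15.6, 259.7 ± 22.5, 184 ± 10.8 and 82.3 ± 11.9 CPM from undifferentiated SG to P (SD, n = 4). At L the 4 mice were at 256, 288, 233 and 261 CPM.

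Rbm46 had the flattest course, with a 3.52-fold span. It was at 106 ± 9.08 CPM in undifferentiated SG and 221 ± 9.60 CPM in differentiating SG, and lower at pL with 197, 203, 188 and 200.5 CPM. At L it was 235 ± 29.7 CPM, overlapping pL. Its highest stage was Z, with 371, 379, 367 and 376 CPM, and P followed at 261 ± 18.9 CPM. It was the only one of the 5 genes whose control mean was lower at pL than in differentiating SG.

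How unusual these steps are can be read from all genes. Of 12492 genes compared, the 4 control mice of neighbouring stages did not overlap for 45.0% between undifferentiated and differentiating SG, 47.8% from there to pL, 45.8% from pL to L, 40.9% from L to Z and 65.3% from Z to P. All 5 members separated at the first of these steps and at L to Z, 4 of 5 at differentiating SG to pL and at Z to P, and 2 of 5 at pL to L. With so many genes moving, separation alone says little, and the sizes of the steps are the information here.

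Germ cells outside the 6 stages also held the members. In the 2 control clusters named diplotene by their markers, Stra8 had means of 1.06 and 1.70 CPM, Meioc 121 and 198 CPM and Rbm46 127 and 176 CPM. In 3 clusters left without a stage name, control Stra8 was 14.6, 163 and 273 CPM, and Meioc 306, 200.2 and 68.3 CPM in the same order. Free RNA was measured in barcodes of 1 to 100 UMIs, which hold no cell. Its median over the 9 mice was 35.8 CPM for Stra8, 5.55 for Gm4969, 88.1 for Meioc, 28.9 for Ythdc2 and 67.1 for Rbm46. In Leydig-like cells, which make testosterone, the medians were 6.13, 1.01, 13.4, 13.2 and 11.2 CPM in the same order. RS-like cells, which resemble round spermatids and came from 8 mice, held a median of 5.04 CPM of Stra8, 52.4 of Meioc, 12.2 of Ythdc2 and 42.1 of Rbm46. In undifferentiated SG the control means of Gm4969 (6.54 ± 1.99 CPM, SD, n = 4), Meioc and Ythdc2 were near or under these free RNA medians, and those of Stra8 (143 ± 37.3 CPM) and Rbm46 were above them.

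The same genes were then counted per cell. With each cell thinned to 3000 UMIs, Stra8 was seen in 54.6% of control pL cells, Gm4969 in 21.2%, Meioc in 66.7%, Ythdc2 in 37.3% and Rbm46 in 47.5%, leaving out 15 of 808 cells that were shallower. Without thinning the shares ran from 54.0% for Gm4969 to 94.3% for Meioc, with Stra8 at 76.0%. In control Sertoli-like cells, which nurse the germ cells, the thinned shares were 4.14%, 0.940%, 15.0%, 9.96% and 19.0%, with 674 of 1206 cells left out. Median depth was 11220.5 UMIs in pL cells and 2563 in Sertoli-like cells. By control mouse, the thinned Stra8 share of pL cells ran from 39.9% to 60.4%. Each pL share pooled over the controls was above that of the Sertoli-like cells.

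Differentiating SG and pL each held 3 clusters, which allowed a finer view. They were put in order by the control level of Sycp1, a gene of the synaptonemal complex that rises toward meiosis. The early, middle and late differentiating SG clusters had 1027, 984 and 1119 cells and 408, 556 and 800.2 CPM of Sycp1. The early, middle and late pL clusters had 883, 889 and 846 cells and 1183, 1349 and 1679.9 CPM. The order is by a marker, not by time.

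**Figure D2:**
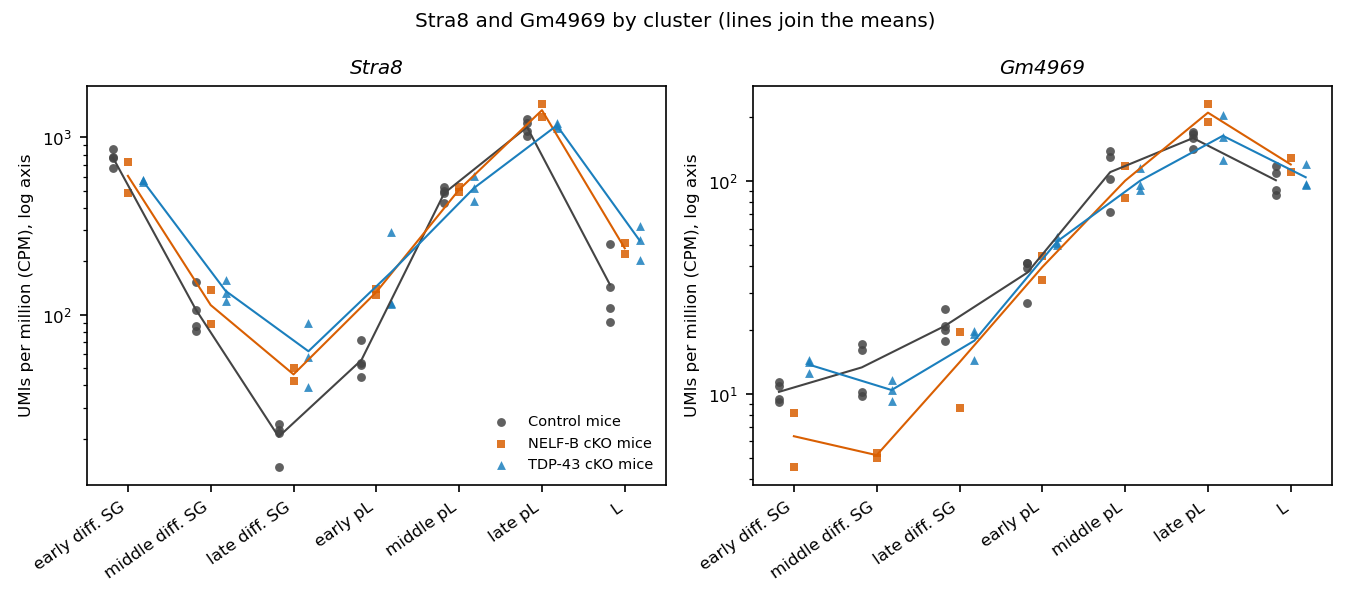
Stra8 and Gm4969 (CPM of summed UMIs, log axis) in the early, middle and late clusters of differentiating SG and of pL and in L. Points are mice, coloured by genotype, and lines join group means. Control Stra8 has a high point in early differentiating SG, a low point of 13.9 to 24.3 CPM in the late cluster and a higher one of 1015 to 1264 CPM in late pL, while Gm4969 has a single rise.

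Stra8 formed 2 peaks along this order in every mouse. Control replicates 1 to 4 had 864, 763, 774 and 669 CPM in early differentiating SG. The middle cluster had 86.9, 153, 107 and 81.5 CPM, and the late cluster 22.5, 24.3, 21.5 and 13.9 CPM. Expression returned to 44.5, 71.9, 52.1 and 53.8 CPM in early pL, 427, 527, 486 and 498 CPM in middle pL and 1203, 1085, 1264 and 1015 CPM in late pL. The fall across differentiating SG was 31.4- to 48.1-fold and the rise across pL 15.1- to 27.0-fold in the 4 mice. None of these cluster ranges overlapped the next, so the mean of a stage hid a change far larger than the difference between stages. In the late differentiating SG cluster Stra8 was near the free RNA of the same controls, 12.3, 33.0, 21.0 and 17.0 CPM.

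Gm4969 had no early peak. It was 9.15 to 11.4 CPM in early, 9.81 to 17.2 CPM in middle and 17.7 to 25.0 CPM in late differentiating SG of the controls, then 26.9 to 41.5, 71.4 to 139 and 142 to 171 CPM across the pL clusters. The early peak of Stra8 thus came without its partner, and in late pL both genes were at their highest cluster. Meioc climbed through all of them, from 22.6 to 31.8 CPM in early to 150.3 to 190.4 CPM in late differentiating SG and 438 to 504 CPM in late pL. Ythdc2 was 33.5 to 47.8 CPM in early differentiating SG, 113 to 147 CPM in early pL, 99.3 to 149 CPM in middle pL and 142 to 196 CPM in late pL, so it did not climb between the first 2 pL clusters. Rbm46 moved least, between 164 and 264 CPM in all 6 clusters of the 4 controls.

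The comparison of genotypes asks whether the loss of NELF-B, a factor that holds RNA polymerase II near promoters, or of TDP-43, an RNA- and DNA-binding protein, alters the level of these genes at a given stage. Counts were tested with edgeR's quasi-likelihood test over the 9 mice, at an adjusted p under 0.05 over all genes tested. None of 68 member tests in 7 cell groups and 2 cKO genotypes passed. Gm4969 was too low to be tested at P. At an unadjusted p under 0.05 there were 17 of 68, or 25.0%, where the share of all genes ranged from 11.6% to 30.2% over the comparisons. DESeq2 called 4 of the member tests. Some cKO mice are said below to lie above or below every control. The share of all genes that do so was counted only in the late differentiating SG and early pL clusters. There 6.80% to 12.1% of genes lay above every control in a cKO genotype, so such separation alone says little. A p that misses the threshold does not show that the genotypes have equal levels. This holds for the values given below with an interval and for those given without one.

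The background of calls was highest at L and Z in both cKO genotypes and lower in the other cell groups. In the sum of all SG, pL, L and Z cells, 0.0655% of genes were called in NELF-B cKO and 0.00504% in TDP-43 cKO. In undifferentiated SG the shares were 0.0133% and 0.0266%, in differentiating SG 0.0578% and 0.0173%, and in pL 0.590% and 0%. At L they were 3.90% and 5.76%, at Z 6.85% and 16.5%, and at P 0.214% for both. The 0 genes of TDP-43 cKO in pL compare with 3151 at an unadjusted p under 0.05 in edgeR and 1284 called by DESeq2.

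**Figure D3:**
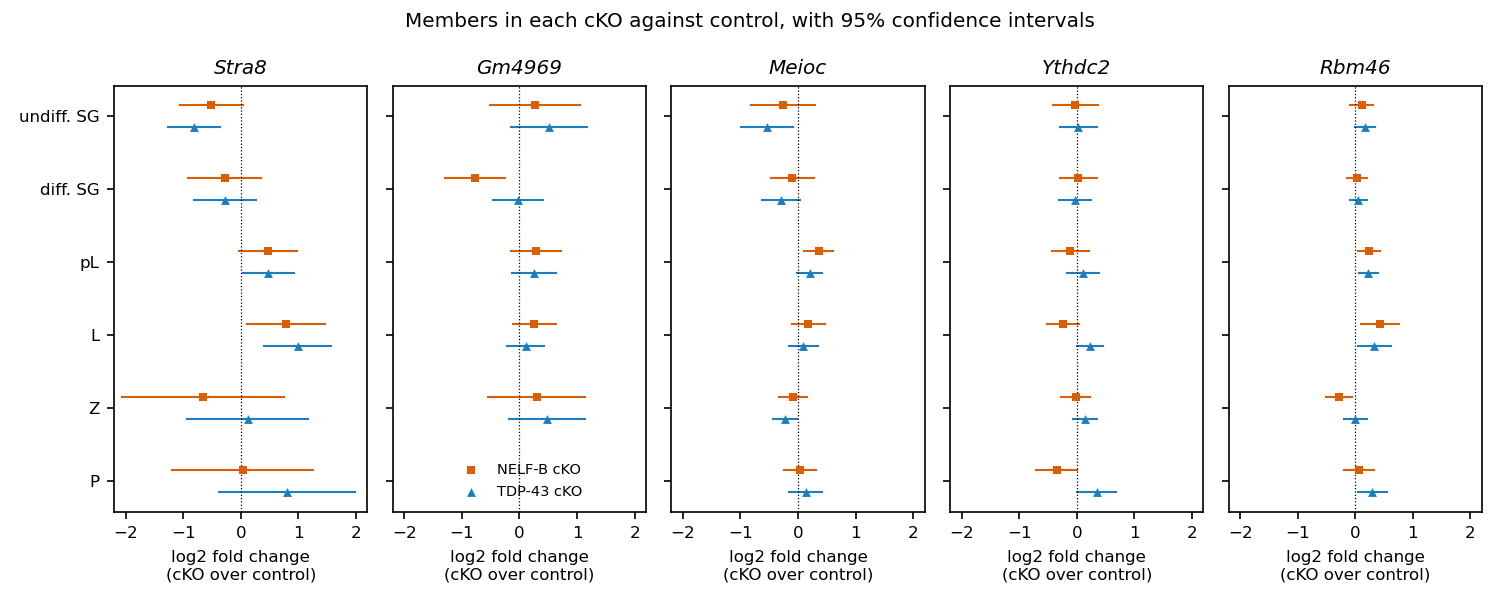
Log2 fold change of each member against control (horizontal axis) in 6 stages (vertical axis) for NELF-B cKO and TDP-43 cKO, from the edgeR fit. Bars are 95% confidence intervals, and the dotted line is no change. No stage value has an adjusted p under 0.05, and the interval of Stra8 at L in TDP-43 cKO runs from 0.40 to 1.57.

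The difference in Stra8 did not have 1 direction over the stages. In undifferentiated SG the NELF-B cKO mice had 77.8 and 121 CPM and the TDP-43 cKO mice 80.3, 94.8 and 65.1 CPM, against 101 to 190.3 CPM in controls. The TDP-43 mice lay below every control, with a log2 fold change of -0.82 (95% interval -1.27 to -0.36, edgeR adjusted p = 0.063), and DESeq2 called this difference at -0.80 (adjusted p = 0.0078). It also passed without either NELF-B cKO mouse, at -0.81 and -0.84 (edgeR adjusted p = 0.029 and 0.028). When the stages were made without integration of the genotypes it was -0.06 (edgeR adjusted p = 0.93). In pL the cKO mice were at 729.8 and 482 CPM and at 703, 538 and 517 CPM, against 312 to 532 CPM. At Z they were at 7.40 and 7.86 CPM and at 7.68 to 16.2 CPM, against 5.85 to 25.6 CPM, with log2 fold changes of -0.66 (95% interval -2.07 to 0.75) and 0.12 (-0.94 to 1.17). The 25.6 CPM was control replicate 3 alone, and the other controls had 5.85 to 8.44 CPM. Without that mouse the control mean was 6.86 CPM, below both NELF-B cKO mice.

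The L stage had the widest gap of Stra8 among the 6 stages. NELF-B cKO mice had 254 and 219.8 CPM and TDP-43 cKO mice 318, 203 and 265 CPM, while control replicate 1 had 249 CPM and the other controls 90.5 to 144. The cKO mice overlapped the controls only through control replicate 1, which had 34 L cells. The log2 fold changes were 0.78 (95% interval 0.11 to 1.46, edgeR adjusted p = 0.17) and 0.99 (0.40 to 1.57, edgeR adjusted p = 0.050, just over the threshold). Without control replicate 1 they were 1.07 (edgeR adjusted p = 0.023) and 1.28 (edgeR adjusted p = 0.022), and without TDP-43 cKO replicate 1 the second was 0.79 (edgeR adjusted p = 0.22). It was 1.02 (edgeR adjusted p = 0.031) without either NELF-B cKO mouse and 1.16 (edgeR adjusted p = 0.048) without TDP-43 cKO replicate 2.

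Gm4969 differed most in differentiating SG of the NELF-B cKO mice, with 6.30 and 10.0 CPM against 12.3 to 15.7 in controls and 11.9 to 14.9 in TDP-43 cKO. These were 54 and 73 UMIs against 47 to 91. The NELF-B cKO mice lay below every other mouse (log2 fold change -0.77, 95% interval -1.29 to -0.25, edgeR adjusted p = 0.22). In pL the 2 NELF-B cKO mice stood at 132 and 80.1 CPM, on either side of the control mean of 88.3, and the TDP-43 cKO mice at 93.4, 95.7 and 113 CPM. At L all mice lay between 86.6 and 129 CPM.

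Meioc was lower in TDP-43 cKO when SG and early meiotic cells were summed, with 116, 147 and 154 CPM against 173 to 229 CPM in controls. No TDP-43 cKO mouse reached a control (log2 fold change -0.48, 95% interval -0.82 to -0.14, edgeR adjusted p = 0.083). DESeq2 called it (adjusted p = 0.025), and edgeR did without NELF-B cKO replicate 1 or 2 (adjusted p = 0.022 and 0.026). That sum mixes stages. Undifferentiated SG were 342 to 393 of the 1165 to 2064 summed cells of a TDP-43 cKO mouse and 76 to 146 of the 512 to 1052 of a control, and their part in the value was not tested. Within stages the direction differed. Meioc was 18.5, 25.5 and 22.5 CPM against 21.9 to 41.5 CPM in undifferentiated SG (log2 fold change -0.54, edgeR adjusted p = 0.19) and 50.3 to 68.4 CPM against 69.6 to 81.9 CPM in differentiating SG (log2 fold change -0.29, edgeR adjusted p = 0.37). It was 415, 393 and 420.4 against 322 to 399 CPM in pL, and 271, 284 and 304 against 318 to 355 CPM at Z. In differentiating SG and at Z all 3 TDP-43 cKO mice lay below the controls, with a log2 fold change of -0.23 at Z (edgeR adjusted p = 0.12). In NELF-B cKO, Meioc was at 505 and 438 CPM in pL, above all controls (log2 fold change 0.36, 95% interval 0.11 to 0.60, edgeR adjusted p = 0.15).

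Ythdc2 took opposite directions in the cKO genotypes at L and at P. At L the NELF-B cKO mice had 218 and 216 CPM, below the controls at 233 to 288, and the TDP-43 cKO mice had 279.7, 307 and 284 CPM, in the upper range of the controls and above it. The log2 fold changes were -0.24 (95% interval -0.51 to 0.04) and 0.23 (0.00 to 0.46). At P they were 59.2 and 70.2 CPM and 112 and 103 CPM against 68.0 to 97.1 CPM, with log2 fold changes of -0.35 (-0.70 to 0.00, edgeR adjusted p = 0.43) and 0.35 (0.01 to 0.68, edgeR adjusted p = 0.25). With cKO cells holding a UMI of the targeted gene removed, the TDP-43 cKO value at P turned to -0.81 (edgeR adjusted p = 0.25). A deep cell is more likely to hold such a UMI, and P cells of these mice had median depths of 35157.5 and 22064 UMIs. Controls lost no cells, so the cells compared can differ in depth and the turn cannot be read as an effect of genotype. The difference between the cKO genotypes was not tested. In the other stages Ythdc2 stayed between -0.24 and 0.14 on the log2 scale.

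Rbm46 was slightly higher at pL and L in both cKO genotypes. In pL it was 233 and 224 CPM in NELF-B cKO and 219, 227 and 211 CPM in TDP-43 cKO, each above the 188 to 203 CPM of the controls. The log2 fold changes were 0.24 (edgeR adjusted p = 0.20) and 0.22 (edgeR adjusted p = 0.12). At L it was 341 and 272 CPM and 286, 260 and 289.9 CPM against 193 to 263 CPM. At Z the NELF-B cKO mice had 311 and 338 CPM, below the 367 to 379 CPM of the controls (log2 fold change -0.28, edgeR adjusted p = 0.13). At P the TDP-43 cKO mice had 323 and 332 CPM against 238 to 281 CPM (log2 fold change 0.29, edgeR adjusted p = 0.21). With cells holding a Tardbp UMI removed from these mice it turned to -0.21 (edgeR adjusted p = 0.65), with the same limit of cell depth as for Ythdc2.

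The same comparisons were then made within the 6 clusters, after the levels by cluster had been seen. Of 60 member tests 1 passed, and 16, or 26.7%, had an unadjusted p under 0.05, where the share of all genes ranged from 11.9% to 19.5% over the comparisons. The background of calls was 0.0196% of genes for NELF-B cKO and 0% for TDP-43 cKO in early differentiating SG, 0.185% and 0.0222% in middle, 0.880% and 0% in late, 0.283% and 0.0773% in early pL, 0.910% and 1.37% in middle pL and 3.66% and 3.96% in late pL. The 0 calls of TDP-43 cKO in early and late differentiating SG are edgeR's, where 2148 and 1953 genes had an unadjusted p under 0.05 and DESeq2 called 600 and 825 genes.

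In these integrated clusters Stra8 at the low point between its 2 peaks was higher in every cKO mouse than in any control, by values that edgeR did not call. In late differentiating SG the NELF-B cKO mice had 42.4 and 49.9 CPM and the TDP-43 cKO mice 89.8, 39.4 and 57.7 CPM, against 13.9 to 24.3 CPM in controls. In early pL they had 139.6 and 129 CPM and 291, 116 and 115 CPM, against 44.5 to 71.9 CPM. The cKO genotypes overlapped each other in both clusters, and neither overlapped the controls. Of all genes tested, 12.1% of those in NELF-B cKO and 6.80% of those in TDP-43 cKO lay above every control in the same way in late differentiating SG, and 10.9% and 7.20% in early pL. The log2 fold changes in late differentiating SG were 1.12 ± 0.33 (SE, 95% interval 0.37 to 1.88, edgeR adjusted p = 0.17) and 1.59 ± 0.30 (0.91 to 2.26, edgeR adjusted p = 0.15). In early pL they were 1.29 ± 0.36 (0.49 to 2.10, edgeR adjusted p = 0.15) and 1.68 ± 0.33 (0.95 to 2.40, edgeR adjusted p = 0.098). DESeq2 called both differences in late differentiating SG and the TDP-43 cKO one in early pL, with adjusted p of 0.035, 0.00015 and 0.0027. Without TDP-43 cKO replicate 1 the values of that genotype were 1.21 (edgeR adjusted p = 0.38) and 1.07 (edgeR adjusted p = 0.22). With only that genotype and the controls in the fit they passed, at 1.57 (edgeR adjusted p = 0.024) and 1.66 (edgeR adjusted p = 0.022), and the NELF-B cKO value in early pL passed without TDP-43 cKO replicate 1, at 1.29 (edgeR adjusted p = 0.023). In early pL Sycp3, an axis gene, was also above every control (279 to 304 CPM) in all cKO mice. It was 657 and 541 CPM in NELF-B cKO and 531, 331 and 359.9 CPM in TDP-43 cKO. In late differentiating SG Sycp3 was 413 and 391 CPM and 240.4, 253 and 231 CPM, against 245 to 280.3 CPM. Stra8 rises steeply across pL, and the part of cell position within a cluster in its values was not tested.

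Clusters made without integration, looked at after these values were seen, gave no single direction. All 9 mice had cells in 1 differentiating SG cluster, of 1108 cells, where Stra8 was near its first peak at 674 to 839 CPM in controls, 629.8 and 718 CPM in NELF-B cKO and 532 to 549 CPM in TDP-43 cKO. The other clusters of these stages mostly split the libraries and not the genotypes. NELF-B cKO 1 lay with the controls and NELF-B cKO 2 with TDP-43 cKO, so each cluster compares few mice. In a differentiating SG cluster of 1266 cells Stra8 was 87.3 CPM in NELF-B cKO 2 and 118, 72.5 and 77.8 CPM in TDP-43 cKO, and the 2 controls with at least 10 cells there, replicates 2 and 4, had 120.2 and 33.0 CPM. In another, of 995 cells, NELF-B cKO 1 had 99.1 CPM against 213, 65.8, 100.0 and 106 CPM in the controls. In a pL cluster of 1409 cells NELF-B cKO 1 had 261 CPM and TDP-43 cKO 2 had 114 CPM, against 165 to 273 CPM in controls. Most pL cells of NELF-B cKO 2 and TDP-43 cKO were in the pL cluster of 753 cells, at 289 CPM and at 519, 423 and 352 CPM, where no control had 10 cells. In the last pL cluster, of 620 cells, NELF-B cKO 1 had 1265 CPM against 695, 897, 949 and 851 CPM in the controls. None of these clusters isolates the low point, so the higher Stra8 of the cKO mice at that point was seen in the integrated clusters and could not be compared without integration.

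**Figure D4:**
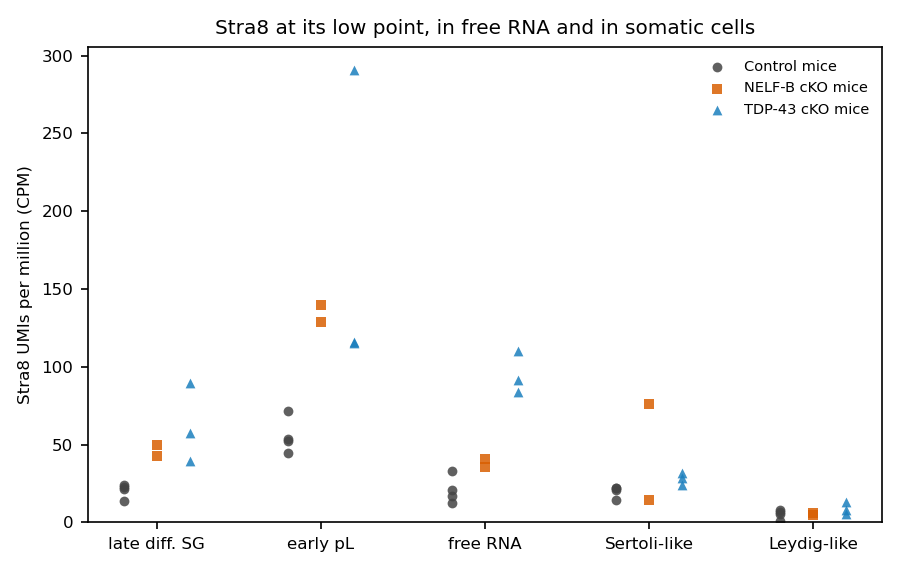
Stra8 (CPM, linear axis) per mouse in the late differentiating SG and early pL clusters, in free RNA of the same library, and in Sertoli-like and Leydig-like cells, coloured by genotype. Free RNA Stra8 is at 83.5 to 110.4 CPM in TDP-43 cKO, 35.8 and 40.9 CPM in NELF-B cKO and 12.3 to 33.0 CPM in control libraries. In both clusters the cKO genotypes overlap each other and lie above the controls.

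At the peaks on either side of the low point the genotypes differed less. In early differentiating SG Stra8 was 485 and 728 CPM in NELF-B cKO and 573, 559.9 and 574 CPM in TDP-43 cKO, against 669 to 864 CPM, with a log2 fold change of -0.39 in TDP-43 cKO (95% interval -0.71 to -0.07, edgeR adjusted p = 0.25). In late pL it was 1538 and 1306 CPM and 1135, 1198 and 1167 CPM against 1015 to 1264 CPM, with a log2 fold change of 0.35 in NELF-B cKO (0.09 to 0.60, edgeR adjusted p = 0.12). The fall across differentiating SG was therefore 11.4- and 14.6-fold in NELF-B cKO and 14.2-, 9.95- and 6.38-fold in TDP-43 cKO, against 31.4- to 48.1-fold. The rise across pL was 10.1- to 11.0-fold and 3.90- to 10.3-fold, against 15.1- to 27.0-fold.

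Free RNA moved with the genotype in the same direction. Stra8 was at 35.8 and 40.9 CPM in the free RNA of NELF-B cKO libraries and 83.5, 91.5 and 110.4 CPM in TDP-43 cKO, against 12.3 to 33.0 CPM in controls. In late differentiating SG 3 of 5 cKO mice were above their own free RNA, and in early pL 5 of 5. Of the controls, replicates 1 and 3 were above theirs in late differentiating SG, and all were in early pL. Leydig-like cells held 4.53 to 6.13 CPM in NELF-B cKO and 5.50 to 13.2 CPM in TDP-43 cKO, against 0.903 to 7.84 CPM. Sertoli-like cells held 76.0 and 14.5 CPM and 24.0 to 32.0 CPM, against 14.7 to 22.4 CPM. Markers of other cells moved with genotype in the same clusters in part. The 6 Leydig markers, all 6 with UMIs in each genotype, summed to 15.5 to 26.9 CPM in control late differentiating SG, 89.6 and 103 CPM in NELF-B cKO and 20.4 to 57.9 CPM in TDP-43 cKO. In early pL the sums were 14.6 to 37.8, 47.5 and 79.4, and 20.0 to 46.9 CPM, so NELF-B cKO lay above the controls in both clusters, as Stra8 did, and TDP-43 cKO overlapped them. The 10 round spermatid markers, all 10 with UMIs in each genotype, went the other way in TDP-43 cKO, at 20.3 to 30.7 CPM against 81.8 to 224 in late differentiating SG and 15.0 to 35.9 against 62.6 to 238 in early pL. In NELF-B cKO the mice were apart, with 164 and 25.6 CPM in late differentiating SG and 139 and 17.2 CPM in early pL for replicates 1 and 2, so replicate 2 also lay below every control. The 10 Sertoli markers, all 10 with UMIs in each genotype, summed to 175 to 289 CPM in control late differentiating SG, 141 and 608 CPM in NELF-B cKO and 206 to 285 CPM in TDP-43 cKO. In early pL they summed to 124 to 269.9, 144 and 522, and 212 to 318 CPM, overlapping between genotypes. The part of free RNA and of other cells in the Stra8 values was not tested.

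The share of cells with a Stra8 UMI was higher in the cKO mice as well. Thinned to 3000 UMIs, it was 10.8 to 15.4% of early pL cells in the control mice, 28.3 to 30.7% in NELF-B cKO and 27.0 to 55.4% in TDP-43 cKO, with 0 of 301, 0 of 245 and 4 of 337 cells left out. Without thinning it was 33.7 to 50%, 60.1 to 78.3% and 63.1 to 100.0%. In late differentiating SG the thinned shares were 6.90 to 10.0%, 10.8 to 13.6% and 12.4 to 25.4%, and the unthinned 24.1 to 32.3%, 31.1 to 49.4% and 49.5 to 79.4%. Thinned Sertoli-like cells gave 4.14%, 4.93% and 5.42%, at median depths of 2563, 2960 and 17849 UMIs before thinning. The tenth of early pL cells with most Stra8 held 41.2 to 63.5% of its UMIs in controls, 39.7 to 44.9% in NELF-B cKO and 30.3 to 41.8% in TDP-43 cKO. In late differentiating SG these shares were 46.7 to 59.4%, 52.4 to 59.4% and 36.6 to 55.5%. They are of unthinned counts and tend to fall as UMIs per cell rise. Early pL held 53 to 85 Stra8 UMIs per control mouse and 232 to 465 per cKO mouse. The shares therefore cannot decide whether few cells carry the difference.

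Meioc in late pL of NELF-B cKO was the member test that passed. It stood at 644 and 604 CPM against 455, 438, 486 and 504 CPM in controls and 453, 457 and 504 CPM in TDP-43 cKO. The NELF-B cKO mice lay above all others, with a log2 fold change of 0.43 ± 0.11 (SE, 95% interval 0.20 to 0.66, edgeR adjusted p = 0.046). Leaving out any 1 of the mice took the adjusted p over the threshold, to between 0.055 and 0.18, with log2 fold changes of 0.37 to 0.50. In the middle differentiating SG cluster Meioc was 50 and 43.1 CPM in NELF-B cKO and 46.8, 38.3 and 40.0 CPM in TDP-43 cKO, below the 56.6 to 75.2 CPM of the controls. The log2 fold changes were -0.47 (edgeR adjusted p = 0.24) and -0.65 (95% interval -0.96 to -0.35, edgeR adjusted p = 0.15). In early pL it was 387 and 355 CPM and 391, 327 and 373 CPM against 293 to 328 CPM. Of the 12 cluster tests of Meioc, the late pL one was the only call. That call was also lost with a replicate block and with removal of cells holding a UMI of the targeted gene.

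Gm4969 in the middle differentiating SG cluster was 5.30 and 5.03 CPM in NELF-B cKO, against 9.81 to 17.2 CPM in controls and 9.25 to 11.7 CPM in TDP-43 cKO (log2 fold change -1.30, 95% interval -2.07 to -0.54, edgeR adjusted p = 0.16). In early pL it was 55.0, 51.4 and 50.2 CPM in TDP-43 cKO, above the 26.9 to 41.5 CPM of the controls (log2 fold change 0.52, 0.15 to 0.90, edgeR adjusted p = 0.14). In late pL it was 230.5 and 189.9 CPM in NELF-B cKO against 142 to 171 CPM (log2 fold change 0.43, 0.06 to 0.79, edgeR adjusted p = 0.19).

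Genes with a like pattern were looked for over the 24 sums of 4 control mice and 6 stages, by Pearson's r of log2(CPM + 1). The sums share mice, libraries and depth, so r is a description. Closest to Stra8 were Lonrf3 (r = 0.980), Hmgn2 (0.978), a nucleosome-binding protein, and Wdhd1 (0.976), a replication factor. Closest to Gm4969, each with r of at least 0.967, were Chuk, a kinase of the NF-κB pathway, Ell2, an elongation factor of RNA polymerase II, and Alcam, a cell adhesion molecule. Meioc was followed by Gbf1 (0.968), Tmem129 (0.966) and Srp19 (0.964), Ythdc2 by Pias2 (0.981), Phf20l1 (0.973) and Copb1 (0.972), and Rbm46 by Stim1 (0.943), Lrrc14 (0.938) and Tmem128 (0.933). Among the members themselves, r was 0.90 for Meioc and Ythdc2, 0.75 for Meioc and Rbm46 and 0.71 for Ythdc2 and Rbm46. It was 0.70 for Stra8 and Gm4969, 0.58 for Gm4969 and Ythdc2, -0.31 for Stra8 and Meioc and -0.52 for Stra8 and Rbm46. The other pairs lay between -0.1 and 0.36.

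Upstream of the members stand the genes of retinoic acid signalling and of germ cell licensing, 19 in all. In control mice Dazl, the RNA-binding protein that licenses germ cells, rose from 715 CPM in undifferentiated SG to 1875 CPM at Z and was 401 CPM at P. Dmrt1, which holds back Stra8 in mitotic SG, was at 263, 308 and 211 CPM up to pL and 11.3 CPM at L, the stage after the second Stra8 peak. Dmrtb1, which acts at the switch from mitosis to meiosis, was 119 CPM in differentiating SG, 80.2 CPM at L and 198 CPM at P, its highest stage mean. Over 103 stage tests per genotype, edgeR called 2 higher and 0 lower in NELF-B cKO and 3 higher and 2 lower in TDP-43 cKO, where 29 and 32 had an unadjusted p under 0.05. DESeq2 called 10 higher and 0 lower, and 11 higher and 8 lower. The list's median log2 fold change ran from -0.11 to 0.29 and from 0.05 to 0.40, where the median of all genes stayed between -0.06 and 0.02.

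Aldh1a1, an enzyme that makes retinoic acid, was higher at L in NELF-B cKO, at 24.1 and 117 CPM against 11.5 to 16.9 CPM (log2 fold change 2.49, edgeR adjusted p = 0.029). The gene was also higher at Z (log2 fold change 1.87, edgeR adjusted p = 0.022). NELF-B cKO 2 carried most of this, and in the L cells of that mouse the 10 Sertoli markers summed to 775 CPM, against 139 CPM in NELF-B cKO 1 and 178 to 413 CPM in the controls. The 6 Leydig markers summed to 68.2 and 93.8 CPM in the NELF-B cKO mice at L against at most 33.7 CPM in controls, and to 55.0 and 111 against 13.7 to 26.2 CPM at Z. Their part in the value of Aldh1a1 was not tested. Dmrtb1 was lower in TDP-43 cKO at L, at 1.87, 26.1 and 9.94 CPM against 49.4 to 108 CPM (log2 fold change -2.68, edgeR adjusted p = 0.032), and at Z. Dmrt1 and Crabp1, a retinoic acid carrier, were higher at Z in TDP-43 cKO, by 1.42 and 1.80 on the log2 scale, from levels of 3.66 to 5.91 and 1.12 to 3.11 CPM in controls. Dazl was higher at L by 0.44 (edgeR adjusted p = 0.033). Within clusters edgeR called 3 further tests. Of all genes, 0.880% were called in late differentiating SG of NELF-B cKO and 3.96% in late pL of TDP-43 cKO, where these calls fall. Aldh1a1 was higher in late differentiating SG of NELF-B cKO at 28.7 and 57.7 CPM against 10.0 to 12.1 CPM, and in late pL of TDP-43 cKO Dmrtb1 was lower (log2 fold change -2.39) and Dazl higher (log2 fold change 0.38). Dmrtb1 and Crabp1 were among the marker genes used for clustering. At L and Z, where most of these calls fall, 3.90% to 16.5% of all genes were called.

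The 11 genes of the PRC1.6 repressor and its partners, which keep germline promoters silent, gave 2 calls, both at Z, where 6.85% and 16.5% of all genes were called, so 1 call in each genotype is near the background. Mga was higher in NELF-B cKO at 231 and 208 CPM against 139 to 151 CPM (log2 fold change 0.54, edgeR adjusted p = 0.016), and Ring1 was lower in TDP-43 cKO (log2 fold change -0.72, edgeR adjusted p = 0.041). Each was the 1 stage test of 76 that passed in edgeR in its genotype, where DESeq2 called 5 and 3, with list medians of -0.25 to 0.18 and -0.03 to 0.26. In control mice Mga was at 177, 145 and 136 CPM in undifferentiated SG, differentiating SG and pL, Cbx3 at 278, 304 and 207 CPM and Hdac1 at 103, 151 and 177 CPM.

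Around Ythdc2, Meioc and Rbm46, a list of 13 genes of m6A marking and RNA decay was measured. In each genotype 1 stage test of 91 passed in edgeR, at L, where 3.90% and 5.76% of all genes were called, so these are near the background. DESeq2 called 5 and 2. Cnot6l, a deadenylase, was higher in NELF-B cKO at 269 and 232 CPM against 146 to 189 CPM (log2 fold change 0.59, edgeR adjusted p = 0.041). Ythdc1, a nuclear reader of m6A, was higher in TDP-43 cKO at 473, 456 and 459.6 CPM against 303 to 403 CPM (log2 fold change 0.50, edgeR adjusted p = 0.036). The list medians were 0.08 to 0.28 in NELF-B cKO and -0.06 to 0.19 in TDP-43 cKO.

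Mitotic cell cycle genes, 16 in the list, are those that MEIOC and YTHDC2 are known to lower. In controls Top2a went from 902 CPM at pL to 1573 at L and 655 at Z, Bub1 from 174 to 613 and 191, and Mki67 from 329.7 to 380.0 and 114. Over 106 stage tests 0 passed in edgeR for NELF-B cKO, where 27 had an unadjusted p under 0.05 and DESeq2 called 5. In TDP-43 cKO edgeR called 2 higher and 1 lower, and DESeq2 called 4 higher and 5 lower. The edgeR calls were 1 at L, where 5.76% of all genes were called, and 2 at Z, where 16.5% were, so they are near the background. List medians ran from -0.09 to 0.23 and from -0.12 to 0.31. The lower call in TDP-43 cKO was Aurka, a spindle kinase, at 9.37, 11.2 and 8.41 CPM against 22.8 to 37.9 CPM at L (log2 fold change -1.58, edgeR adjusted p = 0.028). Ccne1 and Ccnd1 were higher at Z by 0.79 and 1.42. Within clusters edgeR called 2 of 90 tests in NELF-B cKO, both higher, and 0 of 90 in TDP-43 cKO, where 20 had an unadjusted p under 0.05 and DESeq2 called 7. Of all genes, 0.910% were called in middle pL and 3.66% in late pL of NELF-B cKO, so the late pL call is near the background. Mki67, a proliferation marker, was higher in middle pL at 200.1 and 120.3 CPM against 48.2 to 95 CPM (log2 fold change 1.08, edgeR adjusted p = 0.044), and Cdk1 in late pL of NELF-B cKO at 55.1 and 65.0 CPM against 9.20 to 30.3 CPM (log2 fold change 1.63, edgeR adjusted p = 0.015), the cluster where Meioc was also higher.

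Downstream are 25 early meiotic genes, many of them targets of STRA8 and MEIOSIN. Over 174 stage tests, edgeR called 0 higher and 1 lower in NELF-B cKO and 6 higher and 0 lower in TDP-43 cKO, where 49 and 56 had an unadjusted p under 0.05. DESeq2 called 7 higher and 11 lower, and 21 higher and 7 lower. List medians ran from -0.26 to 0.26 and from -0.17 to 0.46. The share of all genes called was 5.76% at L and 16.5% at Z in TDP-43 cKO and 6.85% at Z in NELF-B cKO, so the calls at these stages are near or under the background, and it was 0.214% at P. At L of TDP-43 cKO, Hormad1, an axis protein, was 819, 728 and 734 CPM against 461 to 526 CPM (log2 fold change 0.72, edgeR adjusted p = 0.026). Sycp3 was higher there by 0.45 (edgeR adjusted p = 0.039). At Z Tex11, Dmc1 and Syce2 were higher by 0.82, 0.44 and 0.39, and at P Tex15 was higher by 1.45 (edgeR adjusted p = 0.018). Syce1 was lower at Z in NELF-B cKO, at 132 and 95.2 CPM against 155 to 189 CPM (log2 fold change -0.66, edgeR adjusted p = 0.044).

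Within clusters edgeR called 3 of 145 tests of this list in NELF-B cKO, all higher, and 5 of 145 in TDP-43 cKO, 3 higher and 2 lower. Of all genes, 0.880% were called in late differentiating SG and 0.283% in early pL of NELF-B cKO, 1.37% in middle pL of TDP-43 cKO, and 3.66% and 3.96% in late pL of the 2 genotypes, where the list's calls are near the background. In NELF-B cKO Sycp3, an axis protein, was higher in late differentiating SG at 413 and 391 CPM against 245 to 280.3 CPM (log2 fold change 0.58, edgeR adjusted p = 0.030) and in early pL at 657 and 541 CPM against 279 to 304 CPM (log2 fold change 1.08, edgeR adjusted p = 0.037). These are the 2 clusters of the Stra8 low point. Hormad1 was higher in late pL of NELF-B cKO by 0.47 (edgeR adjusted p = 0.042).

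Rec8, a meiotic cohesin that responds to retinoic acid, was lower in the pL clusters of TDP-43 cKO. In middle pL it was 28.9, 36.6 and 28.0 CPM against 85.8 to 91.7 CPM in controls and 63.6 and 65.8 CPM in NELF-B cKO (log2 fold change -1.42, edgeR adjusted p = 0.0029), and in late pL its log2 fold change was -1.93 (edgeR adjusted p = 0.035). Hormad1 was higher in the same 2 clusters, by 0.90 and 0.54, and Terb2 in middle pL by 0.62. In these clusters Stra8 was 435 to 602 and 1135 to 1198 CPM in TDP-43 cKO against 427 to 527 and 1015 to 1264 CPM in controls, and Gm4969 90.8 to 115 and 126 to 204 CPM against 71.4 to 139 and 142 to 171 CPM. Rec8, Hormad1, Sycp3 and Dmc1 were also among the genes used for clustering, and the clusters were made from the same cells.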

How the data were processed

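The deposited matrices are whole-number UMI counts of each gene in each barcode. The authors mapped reads to mm10 with Cell Ranger, and the counts were neither normalized nor limited to cells. Methods name Cell Ranger 6.1.1 for base calling and demultiplexing and 7.0.0 for mapping, and the submitters' processing notes name both. The file headers give version 4, a difference left unresolved. The study's filter was applied: a barcode needed more than 1000 genes and less than 10% of UMIs from mitochondria.

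Scanpy 1.11.5 clustered all barcodes. Germ cells of 9 clusters were integrated across genotypes with Seurat 5.3.0 and clustered again (3000 genes, 40 principal components, 20 neighbours, resolution 1.2, seed 7). The members, Nelfb and Tardbp were left out of the clustering genes, and so were 7813 genes of round spermatids, a choice made after the clusters were seen. So was the naming rule, which needed 3 markers above the other clusters and left 2312 cells without a name. Scrublet called 94 of 45132 barcodes, too few to have worked, so doublets were not removed.

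UMI counts were summed per mouse and stage where a mouse had at least 10 cells, and tested with edgeR 4.0.16 in R 4.3.3 (filterByExpr, TMM, glmQLFit, glmQLFTest, two-sided, Benjamini-Hochberg over all genes) with the 9 mice in 1 fit. DESeq2 1.42.0 was an alternative, and the study used DESeq2 1.36. The study dropped cKO germ cells in which its target was detected. Here they were kept, and dropping them was an alternative. On simulated pL counts edgeR recovered 48% of 100 genes changed by 1 on the log2 scale in NELF-B cKO (14018 genes) and 56% in TDP-43 cKO (13973 genes). Intervals and floors cover counting or model error only. The mice are separate animals. The labels name no batch, so none was fitted.

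The members and gene lists were chosen with earlier results of these data known. Named genes are the members, the 3 genes of each list with the highest control CPM, up to 5 called genes per list and comparison, and the 3 genes most like each member. Proteins were not used here.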

Additional observations from a re-analysis of the deposited data

Results flagged for a closer look

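In 5 of 30 groups of 4 control mice, 1 mouse lay far from the other 3 by Dixon's test, where chance gives about 1 in 20. Stra8 at Z was 25.6 CPM in control replicate 3 and 5.85 to 8.44 CPM in the others. Gm4969 at P was 2.40 CPM in the same mouse and 0.775 to 0.813 CPM in the others. Rbm46 in differentiating SG was 207 CPM in control replicate 3 and 226 CPM in each of the others. Meioc in pL was 322 CPM in control replicate 1 and 389.7 to 399 CPM in the others, and Ythdc2 in pL was 118 CPM in that mouse and 147 to 152 CPM in the others.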

How the results depend on the processing

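Of 33 member log2 fold changes with an unadjusted p under 0.05, 624 values under other settings were computed: 568 kept direction and side of the threshold, 41 passed newly, 13 lost the call and 2 reversed. Size was not counted. A value that shrank to near no change, as Stra8 in undifferentiated SG of TDP-43 cKO did without integration, is among the 568. Only 1 of the 33 had passed at first, so only that value could lose a call. The 2 reversals came with removal of cKO cells holding a UMI of the targeted gene, at P in TDP-43 cKO: Rbm46 at -0.21 (edgeR adjusted p = 0.65) and Ythdc2 at -0.81 (edgeR adjusted p = 0.25). That removal depends on the depth of a cell and was made in cKO mice alone. The 13 losses were all of Meioc in late pL of NELF-B cKO. The cause was not tested. Member calls over the 14 stage comparisons numbered 4 with DESeq2 and without a filter on low counts, 3 with only the 2 groups compared in the fit, 2 with adjusted deviances, 1 with removal in cKO mice, in all mice or with spermatid genes kept in clustering, and 0 to 4 leaving out 1 mouse.

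Counts of called genes are given in the order all SG, pL, L and Z cells together, undifferentiated SG, differentiating SG, pL, L, Z and P, NELF-B cKO before TDP-43 cKO at each. They were 13 and 1, 2 and 4, 10 and 3, 82 and 0, 360 and 532, 872 and 2095, 31 and 31. With the study's thresholds (0.01 for the adjusted p and 1 for the size of the log2 fold change) they were 1 and 0, 1 and 0, 2 and 0, 3 and 0, 45 and 0, 112 and 508, 4 and 3. With DESeq2 they were 1257 and 3200, 171 and 1083, 432 and 1184, 604 and 1284, 510 and 710, 1206 and 2258, 174 and 699. Without a filter on low counts they were 16 and 2, 52 and 1233, 10 and 6, 172 and 1235, 928 and 1613, 1584 and 2920, 275 and 843. With cKO cells removed that hold a UMI of the targeted gene they were 22 and 53, 5 and 1, 9 and 2, 99 and 21, 326 and 307, 779 and 1634, 15 and 34, and with such cells removed from control mice too 741 and 1, 4 and 172, 10 and 0, 45 and 0, 338 and 0, 306 and 221, 4 and 0. With stages made without integration they were 5 and 0, 2 and 4, 17 and 3, 1 and 0, 497 and 1777, 10 and 1, where L could not be tested because it held 4 control cells in all. DESeq2 size factors kept every count within 1.5 times of the first.

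Further alternatives were chosen after seeing the data. With spermatid genes kept in clustering the counts were 9 and 22, 4 and 3, 8 and 0, 55 and 0, 543 and 618, 851 and 1976, 22 and 13. With only the 2 groups compared in the fit they were 1 and 3556, 0 and 974, 4 and 1041, 1 and 1409, 126 and 852, 275 and 3198, 6 and 1833. With adjusted deviances they were 15 and 2167, 2 and 974, 13 and 3, 88 and 681, 412 and 838, 862 and 2551, 41 and 46. With spermatid genes left out of the counts they were 36 and 8, 6 and 4, 8 and 3, 125 and 0, 414 and 446, 906 and 1644, 26 and 114. Leaving out 1 mouse gave 1 to 743 and 0 to 3712, 1 to 29 and 0 to 1121, 5 to 402 and 0 to 923, 2 to 331 and 0 to 1564, 130 to 540 and 0 to 934, 287 to 1649 and 1022 to 3317, 4 to 2901 and 1 to 1815.

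Replicate numbers are shared between groups. Over the stages, deviations of same-numbered mice had correlations of 0.02 to 0.29 for control and NELF-B cKO, all of them positive. The correlations were -0.22 to 0.04 for control and TDP-43 cKO and -0.49 to 0.09 between the cKO genotypes. With so few mice per group, these values cannot decide whether same-numbered mice shared a litter or a run. With a replicate block the counts were 1 and 0, 0 and 1, 0 and 0, 1 and 0, 8 and 0, 5 and 601, 3 and 1, with 0 member calls.

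Control levels that moved by over 1 SD were these. Without integration Stra8 in undifferentiated SG was 63.0 CPM, Meioc in differentiating SG 69.3, and Gm4969, Ythdc2 and Rbm46 at Z 15.9, 197 and 351. As a mean over cells Stra8 in differentiating SG was 311, Meioc there 84.9, and Meioc and Rbm46 at Z 320.5 and 358. With spermatid genes kept in clustering Stra8 in undifferentiated SG was 281, Meioc in differentiating SG 67.5 and Rbm46 in undifferentiated SG 121. Depth limits Gm4969 most, with 8 to 28 UMIs per control mouse in undifferentiated SG.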
